A study of Homo sapiens with 6 samples.

Results

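The genes described here encode the nuclear pore complex and the nuclear lamina with its closest membrane partners. They are a set of 38 named genes, 32 of them nucleoporins and 6 of them lamins or proteins of the inner nuclear membrane. Each symbol matched exactly 1 of the 60617 Ensembl identifiers in the table of counts, and all 38 passed the filter on low counts. RNA was sequenced from NCI-H1299, a human lung cancer cell line labelled as lung adenocarcinoma. There were 3 libraries with FuHsi knocked down, which carry Sh1 in their titles, and 3 wild-type control libraries, which carry Puro in their titles. The labels do not say what Puro or Sh1 stands for, and both groups were grown in the same serum-containing medium with antibiotics. They give no gene symbol for FuHsi, so its own transcript is not analysed here and the knockdown was not checked against it. The purpose given for the series is the role of FuHsi in nucleolar biology.

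The nuclear pore is the channel through which proteins and RNA pass between nucleus and cytoplasm. A scaffold of an outer and an inner ring lines the opening in the nuclear envelope, and membrane nucleoporins anchor it there. Nucleoporins rich in phenylalanine-glycine repeats fill the channel, filaments face the cytoplasm, and a basket faces the nucleoplasm. Beneath the inner nuclear membrane lies the lamina, a mesh of lamin filaments that holds chromatin and carries the pores.

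Libraries held 24231515 to 27900051 counts in knockdown and 30735547 to 34306849 in control, so every control library was deeper. Of 17223 tested genes, 61.6% were called at an adjusted p under 0.05 (edgeR quasi-likelihood test), 30.7% higher and 30.9% lower in knockdown. Nothing in the labels says that replicates came from separate cultures, so p-values measure the spread between these libraries, which may be technical. Among epithelial markers, the keratin KRT8 averaged 320.0 CPM (the count scaled by library total and TMM factor) in knockdown and 494 CPM in control, and KRT18 averaged 320.3 CPM in knockdown and 335 CPM in control. KRT7 rose by 1.72 on the log2 scale at a low level, 4.10 ± 0.504 CPM in knockdown and 1.24 ± 0.199 CPM in control, without overlap. EPCAM, CDH1 and KRT19 did not pass the filter. The 6 markers of lung adenocarcinoma, among them NKX2-1 and the surfactant genes, summed to 0.742 to 1.11 CPM by library total in knockdown and 0.146 to 0.423 in control, and SFTPC and SFTPA1 had no count in any library. On that scale 4 mesenchymal markers summed to 1051 to 1100 in knockdown and 1409 to 1438 in control, a sum carried by VIM, which fell by 0.70 on the log2 scale. Of the other markers on that list FN1 rose by 0.93 and ZEB1 by 0.45, CDH2 was at -0.01 and was not called, and the median of the list was 0.22. By library total, the 6 fibroblast markers summed to 3.30 to 4.98 in knockdown and 1.53 to 2.81 in control, the 5 leukocyte markers to 1.51 to 1.73 in knockdown and 0.380 to 1.05 in control, and the 4 endothelial markers to 3.26 to 3.87 in knockdown and 1.84 to 2.22 in control. The part of such cells in the results was not tested.

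Transcripts of nuclear pore and lamina genes were lower in knockdown with few exceptions. Of the 38, 36 fell, 0 rose and 2 were not called, where 30.9% of all tested genes fell. Among the 7796 tested genes whose mean log2 CPM lay within the members' range, 80.9% were called and 50.1% fell. The median log2 fold change of knockdown over control was -0.51 for the 38 genes, 0.03 for all tested genes and -0.12 for genes of that abundance range. In 35 of the 38, every knockdown library lay below every control library. The same held for 5567 of all 17223 tested genes and for 3969 of the 7796 of that abundance range. Groups did not overlap, in either direction, for 65.3% of all tested genes and for 6427 of those 7796. Falls of at least 2-fold numbered 3, NUP62, NUP35 and LMNB2, and 3.12% of all tested genes fell by that much. Summed over the 38 genes, the level was 5154 ± 40.1 CPM in knockdown and 7388 ± 34.6 CPM in control (mean ± SD, n = 3 each), a ratio of 0.698. In such bulk samples, fewer cells of one kind and less RNA per cell cannot be told apart.

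Summed levels in knockdown were 0.598 of control for the inner nuclear membrane genes, 0.617 for the lamins, 0.657 for the pore membrane, 0.663 for the inner ring, 0.685 for the Y complex and 0.687 for the central channel. They were 0.856 of control for the cytoplasmic face and 0.928 for the nuclear basket. Such a sum is weighted to the most abundant genes of a position, and median log2 fold changes ran in another order. The medians were -0.72 for the inner nuclear membrane, -0.70 for the inner ring, -0.69 for the central channel and -0.65 for the pore membrane. They were -0.58 for the Y complex, -0.45 for the lamins, -0.32 for the cytoplasmic face and -0.10 for the nuclear basket. Neither the ratios nor the medians were compared by a test. The plot of fold changes by position shows each gene.

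**Figure D1:**
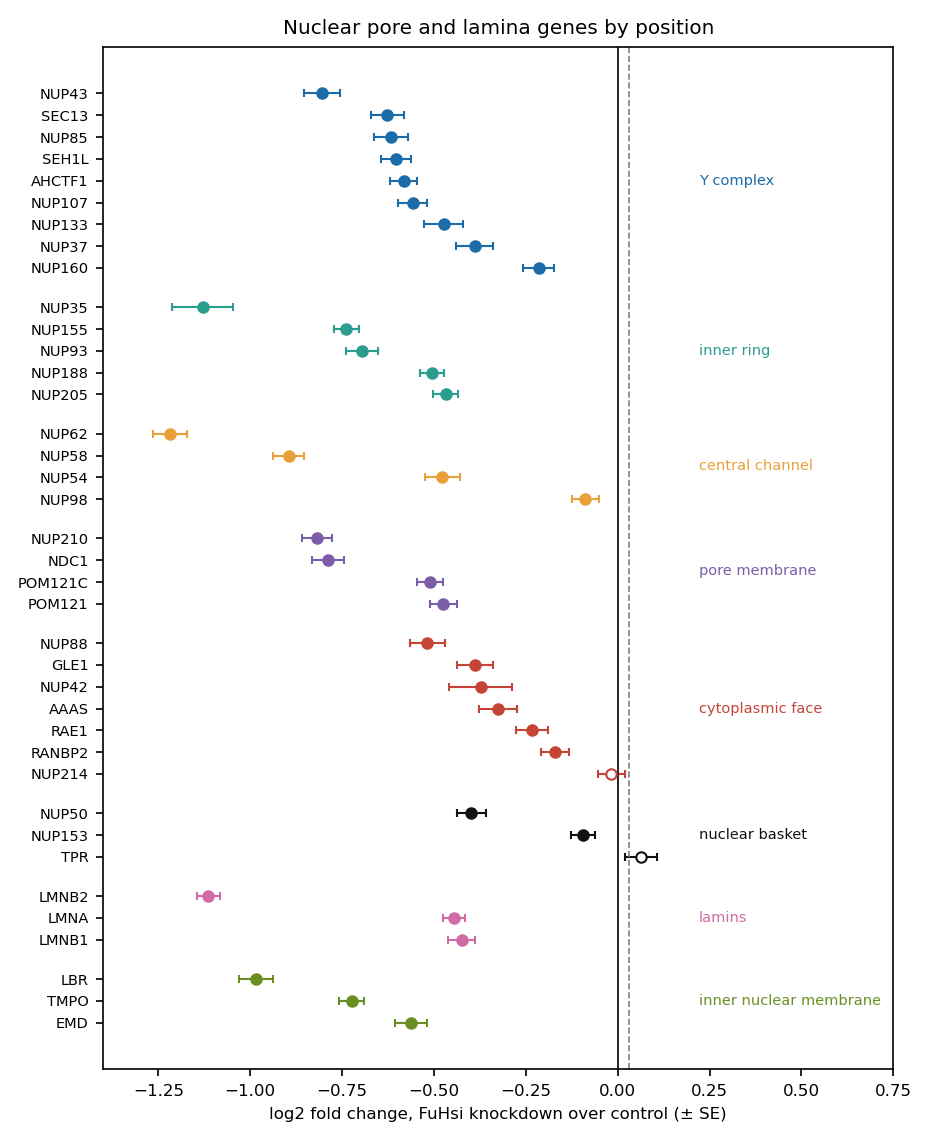
Log2 fold change of knockdown over control (horizontal axis) with its SE for the 38 genes, grouped by position in the pore or lamina. Filled points passed the test, open points (NUP214 and TPR) did not, and the dashed line marks the median of all tested genes at 0.03; NUP62 lies lowest at -1.22 and TPR highest at 0.06.

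Cell-cycle transcripts fell beside these genes. Of all tested genes 30.9% fell and 30.7% rose, and 50.1% of those within the members' range of mean log2 CPM fell. Of 20 genes on a cell-cycle list, 19 fell and 1 rose, with a median of -0.88. The rise was TYMS at 0.14, with overlapping groups, and its call was lost with RLE factors, no filter, DESeq2 and the replicate block, and on leaving out any 1 library except knockdown replicate 3. MKI67, a marker of cycling cells, was at -1.01 and CDK1, the mitotic kinase that phosphorylates lamins and nucleoporins at envelope breakdown, at -0.88. The lamins LMNB1, known to be expressed with the cell cycle, LMNA and LMNB2 were at -0.42, -0.45 and -1.11. The median of the members was -0.51. The part of the cell cycle in the fall of the members was not tested.

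Short sequences near the ends of the genes show what members with large falls, and members without, do and do not share. Promoter windows from 250 bases before to 50 bases after the gene start were found in RefSeq (GRCh38.p14) for 35 of the 38 genes, 47 windows in all. They were searched on both strands for letters bound by E2F factors (TTCCCGC or TTGGCGC), the CHR element (TTTGAA), the CCAAT box (CCAAT) and NRF1 (GCATGCGC). CCAAT and TTGGCGC can overlap when they lie on opposite strands. Of the 47 windows, 19.1% held E2F letters, 23.4% CHR letters, 40.4% CCAAT and 6.38% NRF1 letters. Over all 35116 windows of that length the shares were 9.23%, 15.2%, 34.6% and 3.05%, and over the 17055 windows of tested genes they were 13.2%, 10.6%, 34.7% and 4.65%. These shares are per window, and overlapping windows of a gene can count 1 site more than once. By gene, E2F letters lay in 8 of the 35 members, CHR letters in 9, CCAAT in 15 and NRF1 letters in 3. Shares by gene were not counted for the background. E2F letters of the 4 carriers with the largest falls are printed 5′ to 3′ on the strand of the gene, in capitals:
NUP58 (chr13:25301647-25301673, plus strand): gggctggaagTTCCCGCcaggtccgtg
NUP210 (chr3:13420370-13420396, minus strand): gcccccagagTTCCCGCgctcaggccc
NUP155, first site (chr5:37371068-37371094, minus strand): aggcgctcgtTTGGCGCgcgcgcccta
NUP155, other site (chr5:37371084-37371110, minus strand): tcatgtcgagGCGCCAAggcgctcgtt
NUP85 (chr17:75205701-75205727, plus strand): ggaggcctgaGCGGGAAgcattggcgt

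NUP85 carries the reverse complement of the first E2F word. NUP155 holds the other E2F word on both strands, in sites whose printed windows overlap. The windows of NUP62, NUP35, LMNB2 and LBR, the 4 genes with the largest falls, hold no E2F letters in either strand, and those of NUP160, which fell by 0.22 on the log2 scale, do. CHR letters lie in windows of 9 members, among them NUP35 and LMNB2, and also NUP98 at -0.09 and NUP153 at -0.10. NRF1 letters lie in windows of NUP62, NUP107 and NUP50. A match of letters is a description of the sequence and says nothing of a bound factor.

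An earlier scan of these same fold changes put forward the 7-base word CTATTGA in 3′ UTRs, so its presence here is a description only. In 1 transcript per gene (GENCODE v29), 36 members had an annotated 3′ UTR, and 5 of them, or 13.9%, held the word, against 7.48% of 13089 tested genes. The 5 were LBR, NUP58, AHCTF1, RANBP2 and TPR. The sites of LBR, which fell by 0.98, and of TPR, which was not called, show the same word, in capitals, at both ends of the range:
LBR: tgtgaagaatgCTATTGAtgtttatggtt
TPR: ctgatgtagaaCTATTGAgggttatagac

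Among members the median log2 fold change was -0.58 with the word and -0.50 without it. Among all tested genes it was -0.12 with the word and -0.02 without it. Since the word was drawn from these same fold changes, that difference is no test of it, and UTR lengths were not matched. The share called lower went the other way among members, at 80% of the 5 with the word and 96.8% of the 31 without it. Among all tested genes 44.7% with the word and 36.9% without it were called lower. The words CCTATTG and ACCTATT were searched too. Members called lower were 100% of the 2 with CCTATTG and 94.1% of the 34 without it. For ACCTATT they were 100% of 4 and 93.8% of 32.

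The outer ring of the scaffold is built from the Y complex. All 9 genes listed under it fell, by 0.22 to 0.80 on the log2 scale with a median of -0.58. NUP98, which also encodes the Y complex protein NUP96, is listed with the central channel and was at -0.09, with overlapping groups. NUP43, a propeller-shaped subunit of the complex, had 57.2, 56.7 and 52.02 CPM in the knockdown libraries and 100.3, 94.9 and 94.7 CPM in the control libraries. Its groups were far apart and its log2 fold change was -0.80 ± 0.05 (SE). SEC13, which also serves in the coat of vesicles leaving the endoplasmic reticulum, had 76.95, 84.6 and 80.8 CPM in knockdown and 119, 126 and 129.5 CPM in control, at -0.63 ± 0.04. NUP85, the partner of SEH1L, had 78.3, 71.5 and 76.2 CPM in knockdown and 114, 111 and 122 CPM in control, at -0.62 ± 0.05. SEH1L had 109, 109 and 107 CPM in knockdown and 156, 171 and 166 CPM in control, at -0.60 ± 0.04. These 3 genes thus fell by nearly the same amount, with no overlap between groups.

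NUP107 and NUP133 are neighbours in the stem of the Y. NUP107 had 111, 103 and 105 CPM in knockdown and 154, 158 and 157 CPM in control, at -0.56 ± 0.04. NUP133 had 49.4, 54.6 and 49.3 CPM in knockdown and 71.2, 71.7 and 70.03 CPM in control, at -0.47 ± 0.05. Their ratio of levels per kilobase of exon was 1.52 ± 0.132 in knockdown and 1.61 ± 0.0264 in control (mean ± SD, n = 3 each), and the groups overlapped. NUP37, which binds NUP160, was at -0.39 ± 0.05 and its groups did not overlap.

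AHCTF1, also called ELYS, brings the Y complex to chromatin as the nucleus reforms after mitosis. It averaged 136 ± 1.27 CPM in knockdown and 203 ± 7.38 CPM in control, a log2 fold change of -0.58. Of its 75-base stretches, 35.1% also occur in transcripts of other genes, most of them in the pseudogene AHCTF1P1, so its count is uncertain. NUP160 had the smallest fall of the listed Y complex genes. Its libraries read 101, 93.9 and 95.4 CPM in knockdown and 113, 111 and 113 CPM in control, which do not overlap, and the log2 fold change was -0.22 ± 0.04 with an adjusted p of 1.39e-05 by edgeR. With library size alone as the scaling it was -0.06 and was not called.

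All 5 inner ring genes fell, with a median of -0.70. NUP35 (ENSG00000163002, GENCODE v29 on GRCh38, chromosome 2, 183117513 to 183161680, plus strand), which touches the membrane and bridges other ring proteins, is one of the least abundant genes of the set. It had 13.7, 13.8 and 12.3 CPM in knockdown libraries and 29.7, 27.9 and 29.4 CPM in control libraries. That is 2.19-fold lower in knockdown, at a log2 fold change of -1.13 ± 0.08. NUP155, which also contacts the membrane, had 184, 186 and 182 CPM in knockdown and 305, 310.2 and 305 CPM in control, at -0.74 ± 0.03. NUP93, the hub to which the channel nucleoporins attach, had 91.5, 85.1 and 82.6 CPM in knockdown and 139, 139.8 and 142 CPM in control, at -0.70 ± 0.04. Each of these genes had all knockdown libraries well below all control libraries. NUP188 and NUP205 are related large scaffold proteins. NUP188 had 252, 249 and 247 CPM in knockdown and 353, 351 and 357 CPM in control, at -0.50 ± 0.03. NUP205 had 197, 199.9 and 209 CPM in knockdown and 281, 279.8 and 278 CPM in control, at -0.47 ± 0.03. Both were lower in every knockdown library. Their ratio per kilobase, NUP205 over NUP188, was 0.856 ± 0.0348 in knockdown and 0.834 ± 0.0121 in control, with overlapping groups.

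NUP62, NUP58 and NUP54 form a trimer of coiled coils whose repeats fill the central channel, and all 3 fell by different amounts. NUP62 (ENSG00000213024, chromosome 19, 49906825 to 49929763, minus strand) had 60.6, 54.1 and 59.03 CPM in knockdown and 133, 132 and 139 CPM in control, the largest fall of the 38 at -1.22 ± 0.05 and an edgeR adjusted p of 1.62e-31. NUP58, whose E2F letters are printed above, had 77.2, 81.9 and 78.5 CPM in knockdown and 146, 150.1 and 145 CPM in control, at -0.90 ± 0.04. NUP54 had 65.5, 64.5 and 69.5 CPM in knockdown and 91.1, 95.1 and 91.4 CPM in control, at -0.48 ± 0.05. No library of any of the 3 genes overlapped the other group. The ratio of NUP62 to NUP54 per kilobase of exon was 0.588 ± 0.032 in knockdown and 0.983 ± 0.0461 in control. All 3 knockdown libraries lay below all 3 control libraries in this ratio. A two-sided exact permutation test over libraries gave 0.1, the smallest p that 3 against 3 allows, and 0.16 after adjustment over the 8 ratios compared.

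Other genes, chiefly ATF5 on the opposite strand, cover 21.1% of the exonic bases of NUP62, and whether reads were counted by strand is not given in the sources used here. ATF5 itself averaged 35.7 ± 1.49 CPM in knockdown and 37.3 ± 0.574 CPM in control and was not called. IL4I1 overlaps NUP62 on the same strand, where counting by strand would not separate them. It was called higher at 1.28, at a low level of 1.64 ± 0.585 CPM in knockdown and 0.672 ± 0.158 CPM in control. NUP98, the fourth channel gene, encodes a precursor that is cleaved into NUP98, with its repeats, and NUP96 of the Y complex; a count per gene does not separate them. It had 194, 207 and 198 CPM in knockdown and 202, 217 and 218 CPM in control. These overlap, and the log2 fold change was -0.09 ± 0.04 with an adjusted p of 0.0331 by edgeR. The call was lost without control replicate 2 (-0.08), control replicate 3 (-0.07), knockdown replicate 1 (-0.07) or knockdown replicate 3 (-0.09), in thinned counts (-0.07) and with upper-quartile factors (-0.03). With library size alone the value was 0.06 and was not called.

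Pore membrane genes fell in all 4 cases. NUP210, a single-pass membrane nucleoporin found in some cell types and not in others, had 109, 102 and 102 CPM in knockdown and 179, 185 and 186 CPM in control, at -0.82 ± 0.04. NDC1, which crosses the membrane several times and anchors the scaffold, had 71.8, 73.8 and 68.7 CPM in knockdown and 124, 122 and 125 CPM in control, at -0.79 ± 0.04. POM121 and its near-identical paralog POM121C bind the ring to the membrane. POM121 had 175, 181 and 169 CPM in knockdown and 242, 242 and 245 CPM in control, at -0.47 ± 0.04. POM121C had 167, 168 and 167 CPM in knockdown and 232, 238 and 246 CPM in control, at -0.51 ± 0.04. Transcripts of other genes, each other's among them, hold 51.7% of the 75-base stretches of POM121 and 39.3% of those of POM121C, so the pair cannot be read separately. Summed into 1 row with the pseudogene POM121B, they were at -0.49 ± 0.03.

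**Figure D2:**
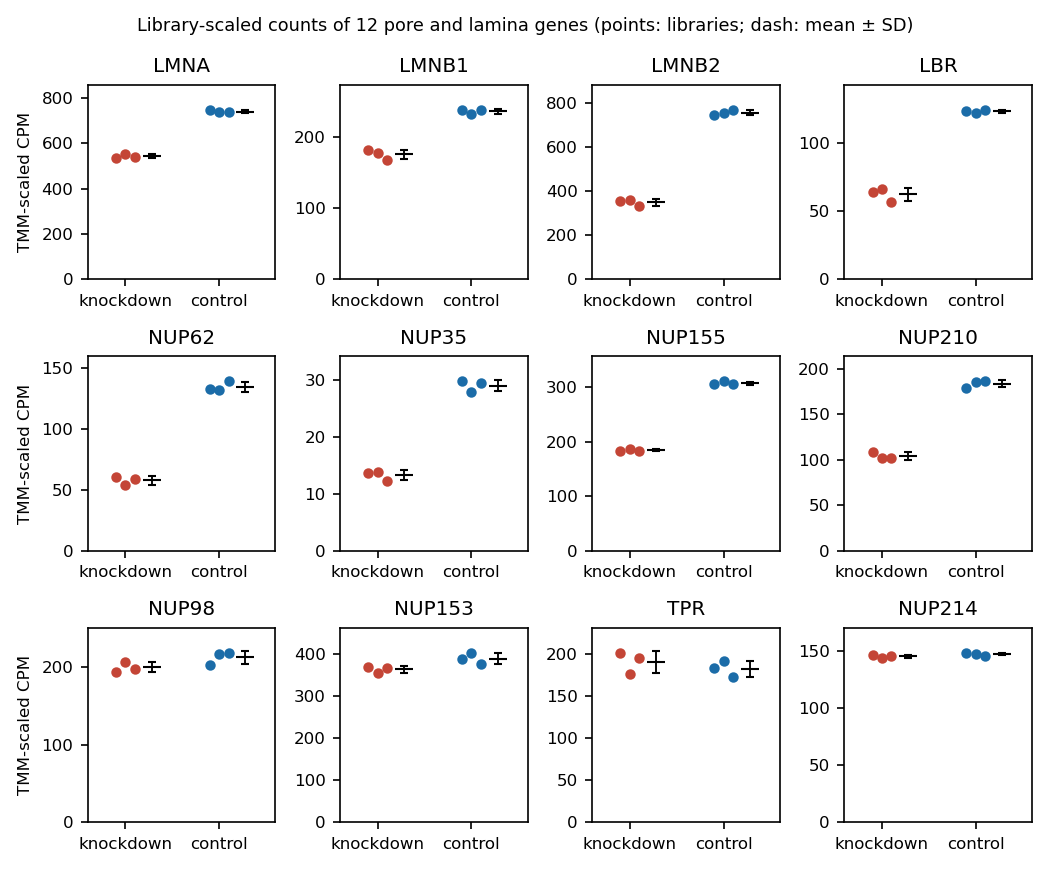
Library-scaled counts (TMM-scaled CPM, vertical axes from 0) of 12 genes in each knockdown and control library, with mean ± SD beside the points. The first 8 genes, from LMNA to NUP210, have separate groups, while TPR, NUP214 and NUP98 overlap and NUP153 differs by a small step.

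On the cytoplasmic face, where exported messenger RNA is stripped of its carrier, 6 of 7 genes fell, with a median of -0.32. NUP88, which holds the NUP214 subcomplex, had 57.1, 60.2 and 57.8 CPM in knockdown and 83.3, 83.3 and 84.1 CPM in control, at -0.52 ± 0.05. Exons of RPAIN and RABEP1 cover 18.7% of its exonic bases. GLE1, the activator of the export helicase, had 65.5, 62.1 and 64.5 CPM in knockdown and 79.8, 85.2 and 86.4 CPM in control, at -0.39 ± 0.05. Its docking site NUP42 had 18.1, 16.2 and 17.7 CPM in knockdown and 24.3, 23.1 and 20.04 CPM in control, at -0.37 ± 0.09. These groups do not overlap, but those of NUP42 lie close. AAAS, or ALADIN, the gene mutated in triple A syndrome, had 63.3, 63.3 and 57.9 CPM in knockdown and 78.8, 71.5 and 81.0 CPM in control, at -0.32 ± 0.05. RAE1, an export factor that binds NUP98, had 85.1, 87.8 and 87.02 CPM in knockdown and 101, 102 and 103 CPM in control, at -0.23 ± 0.04. It was not called with library size alone, at -0.08.

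RANBP2 is the giant protein of the cytoplasmic filaments and a SUMO ligase. It had 233, 216 and 242 CPM in knockdown and 262, 271 and 244 CPM in control. The groups touch without overlapping, and the log2 fold change was -0.17 ± 0.04. It shares 20.1% of its 75-base stretches with other genes, chiefly the RGPD copies, of which RGPD8 rose by 0.60; summed with the RGPD genes the value was -0.13, with an edgeR adjusted p of 0.0047. With library size alone RANBP2 was at -0.02 and was not called. NUP214, the filament protein that binds the exportin XPO1, had 147, 144 and 145 CPM in knockdown and 148, 147 and 146 CPM in control. The groups overlap, and its log2 fold change was -0.02 ± 0.04 with an adjusted p of 0.72 by edgeR. It was called higher with library size alone, at 0.14.

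Of the 3 nuclear basket genes 2 fell, and their median was -0.10. NUP50, a mobile basket protein that helps release cargo from importins, had 107, 111 and 111 CPM in knockdown and 143, 147 and 146 CPM in control, at -0.40 ± 0.04. NUP153, which anchors the basket and meets the lamina, was the nucleoporin with the highest level per kilobase. It had 370.1, 356 and 369 CPM in knockdown and 389, 404 and 377 CPM in control. The groups do not overlap but are close, and the log2 fold change was -0.10 ± 0.03 with an adjusted p of 0.00939 by edgeR. The call was lost without control replicate 2, at -0.08, and with upper-quartile factors, at -0.04. With library size alone the value was 0.06 and was not called.

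TPR, whose coiled coils form the basket fibres, had 201, 175 and 195 CPM in knockdown and 183, 191 and 172 CPM in control. Its groups overlap, and it was the 1 gene of the 38 with a positive value, 0.06 ± 0.04, with an adjusted p of 0.203 by edgeR. It was called higher without knockdown replicate 2, at 0.11, with upper-quartile factors, at 0.12, and with library size alone, at 0.22. The direction of the basket depended on the scaling, since with library size alone the median of its 3 genes was 0.06. TPR also holds the 3′ UTR word printed above. The ratio of NUP153 to TPR per kilobase was 3.94 ± 0.198 in knockdown and 4.39 ± 0.0948 in control, without overlap, with a two-sided exact permutation p of 0.1 and 0.16 after adjustment over the 8 ratios.

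All 3 lamin genes fell, LMNB2 the most. LMNB2 (ENSG00000176619, chromosome 19, 2427638 to 2456996, minus strand), which encodes a B-type lamin that stays attached to the membrane through its lipid tail, had 355, 359.8 and 334 CPM in knockdown libraries and 746, 755 and 769 CPM in control libraries. It was 2.17-fold lower in knockdown, at -1.11 ± 0.03 with the smallest adjusted p of the 38, 1.06e-37 (edgeR). LMNB1, the other B-type lamin, had 182, 178 and 169 CPM in knockdown and 239, 232 and 238 CPM in control, at -0.42 ± 0.04. LMNA, whose transcripts give lamin A and lamin C, had 536, 552 and 538 CPM in knockdown and 746, 735 and 736 CPM in control, at -0.45 ± 0.03. A count per gene does not separate lamin A from lamin C.

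The proportions of the lamins differed between pairs. The ratio of LMNA to LMNB1 per kilobase of exon was 1.54, 1.61 and 1.66 in knockdown and 1.63, 1.65 and 1.605 in control, with overlapping groups and a log2 difference of -0.02. The ratio of LMNB2 to LMNB1 was 1.31, 1.35 and 1.32 in knockdown and 2.09, 2.17 and 2.16 in control, a log2 difference of -0.69. The ratio of LMNA to LMNB2 was 1.21 ± 0.0419 in knockdown and 0.759 ± 0.0168 in control. Neither of these last ratios overlapped between groups, and each had a two-sided exact permutation p of 0.1, the smallest possible, and 0.16 after adjustment. Ratios within a library show unequal change of the genes and do not depend on the scaling of libraries.

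Of the membrane partners of the lamina, LBR fell most. LBR (ENSG00000143815, chromosome 1, 225401502 to 225428925, minus strand), the lamin B receptor, which also reduces sterols, had 63.7, 65.8 and 56.9 CPM in knockdown and 123, 122 and 124 CPM in control, at -0.98 ± 0.05. TMPO, whose isoforms are the lamina-associated polypeptides, had 193, 199 and 184 CPM in knockdown and 322, 316 and 316 CPM in control, at -0.72 ± 0.03. EMD, or emerin, the gene of X-linked Emery-Dreifuss muscular dystrophy, had 75.6, 77.8 and 79.1 CPM in knockdown and 114, 113 and 117 CPM in control, at -0.56 ± 0.04. All 3 had groups that did not overlap.

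Levels within the set can be compared only per length. The length used was that of all annotated exons of a gene merged, not of the transcripts expressed here, and rankings depend on it. CPM per kilobase of exon ran from 3.27 for NUP35 to 77.6 for LMNA in knockdown, and from 5.15 for NUP42 to 139 for LMNB2 in control. LMNB2 averaged 64.3 ± 2.58 in knockdown and 139 ± 2.16 in control on this scale, and LMNA averaged 77.6 ± 1.25 in knockdown and 106 ± 0.866 in control. LMNA was thus the highest gene of the set in knockdown and LMNB2 in control on this scale. By count alone they were close in control, at 739 ± 6.05 CPM for LMNA and 757 ± 11.7 CPM for LMNB2. NUP62 ranked 33 of 38 in knockdown and 19 in control. NUP98, among the higher nucleoporins in knockdown, ranked 9 in knockdown and 22 in control. Its level was 20.2 ± 0.656 CPM per kilobase in knockdown and 21.4 ± 0.895 in control. TPR ranked 17 in knockdown and 31 in control, with levels of 15.4 ± 1.08 and 14.7 ± 0.789. These ranks moved because most other members fell, not through a marked rise of either gene.

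**Figure D3:**
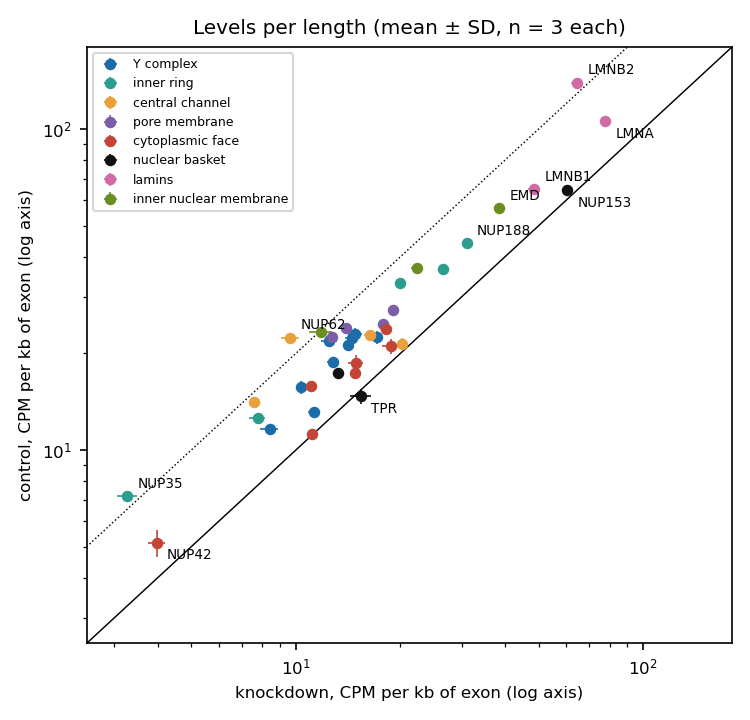
Level per length, in CPM per kilobase of exon, in knockdown (horizontal log axis) and control (vertical log axis), mean ± SD of 3 libraries each. The solid line marks equal levels and the dotted line 2-fold lower levels in knockdown; NUP62, NUP35 and LMNB2 lie above the dotted line and TPR lies below the solid one.

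The set sits among genes of like abundance in the plot of all tested genes. LMNB2, LMNA and NUP153 are the most abundant by count, and NUP35 and NUP42 the least. By the size of the fold change in either direction NUP62 ranked 1453 and LMNB2 1740 among 17223 genes.

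**Figure D4:**
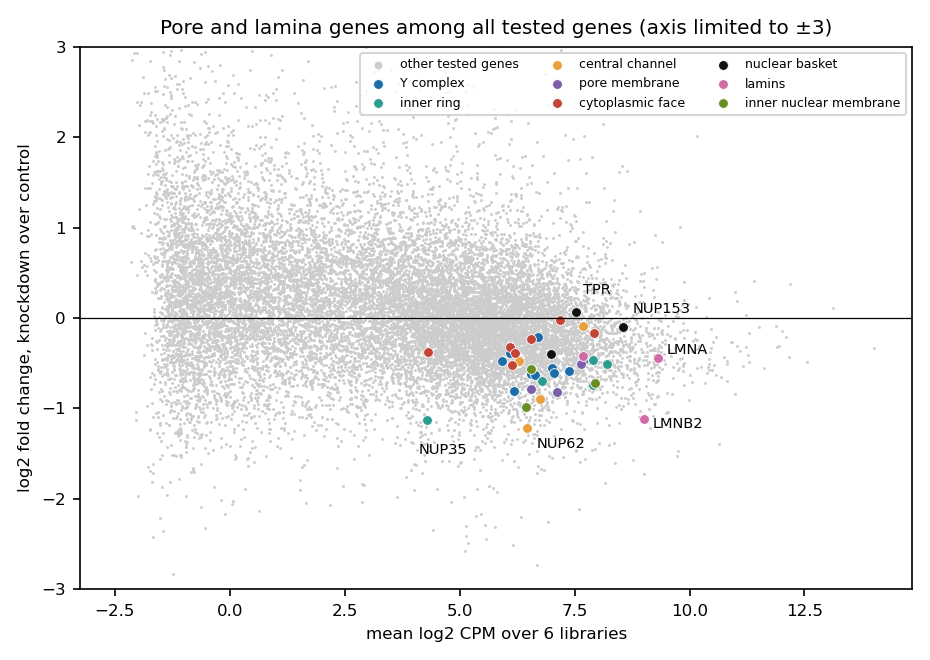
Log2 fold change of knockdown over control (vertical axis, limited to 3 in each direction, with 117 genes beyond it) against mean log2 CPM (horizontal axis) for all tested genes in grey and the 38 genes in colour by position. Nearly all of the set lies below 0, between -1.22 and 0.06.

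Lists of genes that work with the pore held falls and, in most, rises. Beside the counts of every list below, 30.9% of all tested genes fell and 30.7% rose. Among tested genes within the members' range of mean log2 CPM, 50.1% fell and 30.8% rose. Of 7 genes for the Ran cycle, which gives transport its direction, 6 fell and 0 rose, with a median of -0.68. RANBP1, a cofactor in the release of Ran from carriers, averaged 125 ± 4.01 CPM in knockdown and 319 ± 9.16 CPM in control, at -1.35 ± 0.04. NUTF2, which carries Ran back into the nucleus, averaged 41.0 ± 1.02 CPM in knockdown and 93.8 ± 2.39 CPM in control, at -1.19 ± 0.05. Of 23 tested importins and exportins, 13 fell and 7 rose, with a median of -0.17. IPO5, an importin that carries ribosomal proteins among other cargo, averaged 258 ± 5.52 CPM in knockdown and 517 ± 3.15 CPM in control, and KPNA2, an importin alpha, was at -0.87. KPNA6 and KPNA5, also importin alphas, rose by 0.62 and 0.41. The counts were 10 rising and 10 falling with library size alone.

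Of 19 genes for messenger RNA export, 12 fell and 2 rose, with the export adaptors ALYREF at -0.76 and CHTOP at 0.22. With library size alone 7 fell and 7 rose, and 1 rose with DESeq2, without control replicate 1 or without knockdown replicate 2. Of 17 genes for the bridge between nucleus and cytoskeleton and other envelope proteins, 10 fell and 4 rose. SYNE1, or nesprin-1, which links the outer membrane to actin, averaged 302 ± 18.5 CPM in knockdown and 90.1 ± 3.17 CPM in control, a rise of 1.74 ± 0.04. SUN2, an inner membrane partner of nesprins, was at -0.72 ± 0.08. BANF1, which ties chromatin to emerin and its relatives, was at -0.57.

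Of 6 enzymes and partners of lamin processing, 3 fell and 0 rose. ICMT, which methylates the lipid-modified tail of lamins, was at -0.83, and ZMPSTE24, the protease that cuts prelamin A, at -0.42. Of 18 tested genes for envelope breakdown and reassembly, 11 fell and 5 rose. PLK1, a mitotic kinase that is also on the cell-cycle list, was at -1.29, and CHMP4C, of the membrane-sealing ESCRT machinery, rose by 0.96. Of 8 other tested pore-associated genes, 3 fell and 2 rose, with SENP2, a SUMO protease of the basket, at -0.29 and ZC3HC1, a basket protein, at 0.19; of all tested genes 30.9% fell and 30.7% rose. In this list 1 rose with DESeq2, without control replicate 1 or without knockdown replicate 2. The counts were 1 falling and 4 rising with library size alone, and with upper-quartile factors 1 fell.

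**Figure D5:**
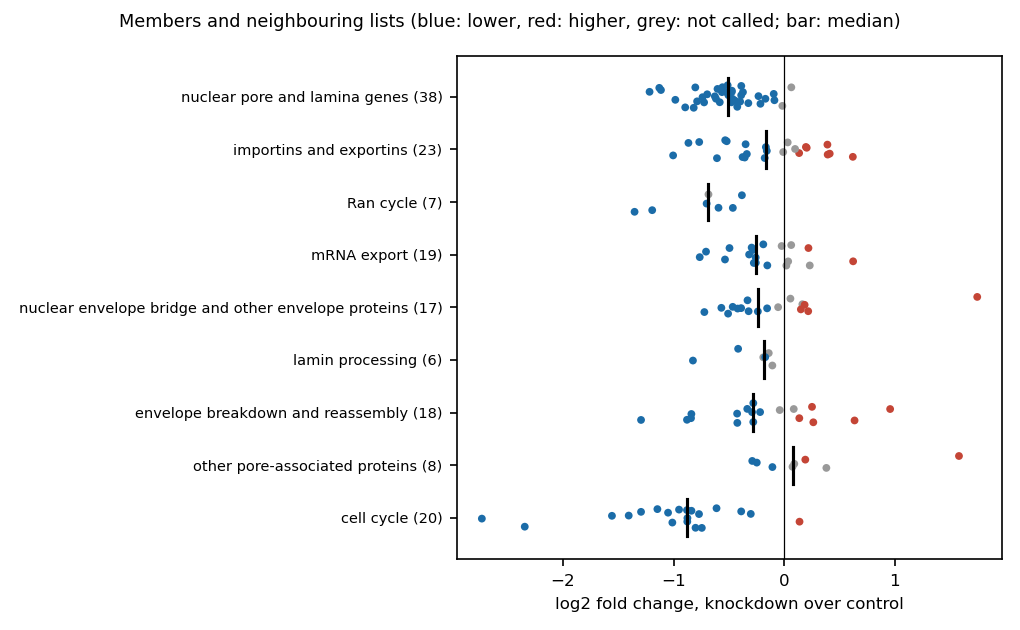
Log2 fold change of knockdown over control for each tested gene of the nuclear pore and lamina set and of 8 neighbouring lists (number tested in brackets). Bars mark medians, which run from -0.88 for the cell-cycle list to 0.08 for other pore-associated genes, against -0.51 for the pore and lamina set.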

How the data were processed

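RNA of 3 knockdown and 3 control libraries was sequenced. The deposited values are the authors' whole-number counts per gene, not normalized. According to the submitters' processing notes the tools included STAR 2.7.0d, Trim Galore 0.6.6, featureCounts 2.0.1 and DESeq2 1.30.1, and the build was hg38. The sources used here give neither annotation release nor strand setting, nor how reads with several alignments were treated.

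Genes were filtered by filterByExpr (minimum count 10), scaled by TMM and tested by the quasi-likelihood test of edgeR 4.0.16 (robust, R 4.3.3) on group alone. Benjamini-Hochberg adjustment ran over 17223 genes. Log2 fold changes set knockdown over control, SE comes from the test statistic, and mean log2 CPM used a prior count of 2. Gene lengths, positions and overlaps came from GENCODE v29 on GRCh38, which held 58542 of the 60617 identifiers. Replicates of a group differed by more than sampling noise (chi-square over degrees of freedom 2.80 to 4.66). On simulated counts for knockdown over control (16885 genes), 92 of 100 changes of 1 log2 unit and 74 of 100 of 0.5 were called in the right direction. In that simulation 16685 genes were left unchanged, while 61.6% of tested genes were called in the data. Its shares therefore need not hold for the members.

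The members, the neighbouring lists and the tests were chosen with earlier results of these data known. All members are named. From a neighbouring list, the naming rule took at most the 2 strongest rises and 2 strongest falls that were called at a mean log2 CPM of 1 or more, and some of these are given. Paralogs of POM121 and RANBP2 and the overlapping genes ATF5 and IL4I1 are also given. MKI67 and CDK1 stand for the cell-cycle list and were chosen after their values were seen. Alternatives were other scalings, no filter, DESeq2 1.42.0, leaving out each library, the replicate number as a block and summed paralogs. Thinning all libraries to the smallest total was chosen after seeing the data.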

Additional observations from a re-analysis of the deposited data

How the results depend on the processing

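Of the 38 genes, 31 kept their direction and their side of the threshold in all 13 alternatives. The exceptions were NUP160, NUP98, NUP214, RANBP2, RAE1, NUP153 and TPR. Library size alone raised the median of all genes by 0.15. With it NUP98 was at 0.0648, NUP153 at 0.0584, NUP214 at 0.137 and the basket median at 0.0584, each on the other side of 0. NUP214 was at 0.043 with upper-quartile factors. Members lower numbered 31 with library size alone and 34 to 36 otherwise. Members higher numbered 1 with upper-quartile factors, 2 with library size alone, and 0 to 1 when 1 library was left out. The members' median was -0.45 with upper-quartile factors, -0.35 with library size alone, -0.53 without a filter, -0.53 with DESeq2, and -0.53 to -0.50 when 1 library was left out. The median of other pore-associated genes ran from -0.0347 to 0.165 when 1 library was left out. The causes were not tested.

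Over all genes, higher calls numbered 4558 (DESeq2) to 6986 (library size alone) and lower calls 3855 (library size alone) to 5401 (RLE). Of called genes, 64.4% were higher with library size alone and 49.9% with TMM. The adjusted p of DESeq2 was missing for 10856 genes. With the replicate number as a block, 36 members were lower and 0 higher, their median was -0.51, and each member kept its call. The deviations of libraries with 1 number correlated at -0.000751, -0.00642 and -0.0235. Such values show no shared shift by number and do not settle whether libraries were paired. Thinned counts left 35 members lower. Depth limits the least abundant members most, and NUP42 had the largest SE, 0.0858 on the log2 scale.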
